A study of Camponotus floridanus with 48 samples.

Results

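The comparison is between 11 long and 8 intermediate larvae, 19 of the 48 larvae sequenced from the ant Camponotus floridanus, the Florida carpenter ant. Each is a separate female animal at the terminal larval stage, all 48 come from 1 colony, and polyA RNA of the whole body was sequenced in a library of its own. The labels name no treatment, age or batch and separate the larvae only by measured length. The 11 long larvae (ant No. 5, 26, 40, 41, 42, 43, 44, 46, 48, 76 and 79) measured 6689.42 to 7598.06 µm, with a mean of 7228 ± 284 µm (SD, n = 11). The 8 intermediate larvae (No. 19, 21, 27, 35, 62, 64, 72 and 77) measured 5395.82 to 5991.09 µm, with a mean of 5629 ± 196 µm (SD, n = 8). The difference between these means is 1.60 mm, and no larva of the comparison measured between 5991.09 and 6689.42 µm.

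The 19 larvae were chosen by length and by a measured value, a low score on the first principal component of log2 expression. That component held 48.5% of the variance among the 48 libraries, and its sign is arbitrary. The scores of the 19 larvae ran from -51.2 in No. 35 to 3.52 in No. 64 and 5.30 in No. 42. The nearest larvae left out for a high score had 23.1 (No. 6) and 28.9 (No. 68), and the farthest 108 (No. 32). None of the 48 larvae scored between 5.30 and 23.1. The scores of No. 64 and No. 42 nevertheless lay nearer to that of No. 6 than to the median of their own group. The choice left out 8 intermediate larvae, 5 long larvae and 2 short larvae with high scores, and 14 short larvae with low scores. The left-out intermediate larvae measured 5850.88 to 6613.4 µm (mean 6316 µm) and the left-out long larvae 6754.55 to 7462.34 µm (mean 6947 µm). The left-out intermediate larvae were thus longer on average than the intermediate larvae compared, and the left-out long larvae shorter than the long ones. Among the 19, the long larvae had a median score of -16.3 (-42.9 to 5.30) and the intermediate larvae a median of -38.5 (-51.2 to 3.52). These scores are a description of the choice and carry no test.

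Workers of carpenter ants vary widely in adult body size, and much of an ant's final size is set while it feeds as a larva, since an adult insect does not grow. The terminal larval stage is the last one before the pupa. In insects generally, growth in this stage is coupled to nutrition through insulin signalling, and its end is timed by juvenile hormone and ecdysteroids. In RNA of a whole body, a change in the number of cells of a type and a change in RNA per cell cannot be told apart.

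The 8 intermediate libraries held 41177860 to 49115258 reads assigned to genes and the 11 long libraries 6608767 to 54435718. The range of the long larvae comes from No. 43 with 6608767 reads and No. 42 with 8928646, both long. The means of the groups did not differ beyond the spread between larvae in reads (exact permutation test, two-sided, p = 0.470, and 0.538 without No. 42 and No. 43) or in genes with a read (p = 0.577, and 0.357 without them). Genes are named as in RefSeq (assembly Cflo_v7.5). All but 4 of the 13878 genes are named by a locus number or a tRNA name and have no product name in the tables used here, so most genes below are reported without a function. For the same reason the labelled source could not be checked against marker genes. Levels are CPM values (read counts relative to library size) after scaling by TMM factors, a scale on which larvae can be compared for 1 gene but genes of different length cannot be compared with each other.

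Between intermediate and long larvae, 88 genes were higher in the long larvae and 19 were lower (edgeR quasi-likelihood test, Benjamini-Hochberg adjusted p under 0.05). These 107 genes are 1.03% of the 10361 tested, the higher ones 0.849% and the lower ones 0.183%. Before adjustment, 1627 genes (15.7%) had a p under 0.05. Most changes were moderate in size. The median log2 difference was 0.88 among the higher genes and -0.53 among the lower ones, against -0.01 over all tested genes. Of the higher genes, 37 differed by more than 2-fold and 8 by more than 4-fold. Of the lower genes, 4 differed by more than 2-fold and 1 by more than 4-fold. Those beyond 4-fold include LOC105251138, LOC105250331, LOC112637971 and the lower gene LOC112639089, which had few reads in 1 group. The fitted differences of LOC105251138 and LOC105250331 are not taken as sizes. Without the shallow libraries No. 42 and No. 43, 35 genes were higher and 3 lower, 0.368% of 10320 tested. All 38 were among the 107, and the other calls were lost. A smaller set of 32 genes (31 higher and 1 lower) stayed under the threshold in all 13 alternative fits, which include the fit without No. 42 and No. 43 and the fit with the short larvae, and with each of the 19 larvae left out in turn. Of the 31 higher ones, 30 averaged at least 1 CPM in both groups, with log2 differences of 0.36 to 3.59, and 15 of these exceeded 2-fold. The remaining one, LOC105251138, had almost no reads in the intermediate larvae, and the 1 lower gene, LOC112639089, had few in the long ones. Both are described with the genes of few reads, and their calls give no support of their own.

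The higher genes were mostly protein coding, 82 of 9787 tested. Among long non-coding RNA genes 3 of 424 were higher, and among pseudogenes 2 of 115 were higher and 1 lower. The shares called higher were 0.838% for protein coding genes and 0.708% for long non-coding RNA genes, both near the 0.849% over all genes. The higher genes had a median mean level of 66.3 CPM and the lower ones 28.1 CPM, against 22.8 CPM over all tested genes.

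Complete separation of the groups was rare. In 6 genes (0.0579% of those tested) every long larva stood above every intermediate larva, and all 6 were called. In 0 genes did every long larva stand below every intermediate one.

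LOC105252852 had the steepest rise of these 6. Its level was 6.67 to 15.8 CPM in the intermediate larvae with a median of 10.1, and 20.9 to 442 CPM in the long larvae with a median of 91.7. The groups did not overlap, and the long larvae spread far more than the intermediate ones, with No. 41 and No. 42 highest and No. 76 and No. 46 lowest. The log2 difference was 3.59 ± 0.58 (SE, edgeR adjusted p = 0.00439), and 3.15 without No. 42 and No. 43 (adjusted p = 0.0126). The short larvae, with a median of 9.88 CPM, stood at the level of the intermediate ones. The larvae left out for their high score had medians of 2133 CPM (233 to 3845) in the 8 intermediate and 1863 CPM (723 to 2806) in the 5 long ones. The left-out long larvae stood above all 19, while the left-out intermediate larvae overlapped the upper end of the long group.

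LOC105258916 was lower and steadier. The intermediate larvae had 5.07 to 13.9 CPM with a median of 10.8, and the long larvae 15.4 to 51.3 CPM with a median of 33.3. The groups did not overlap, although the lowest long larva, again No. 76, came close to the highest intermediate larva. The log2 difference was 1.75 ± 0.22 (SE, edgeR adjusted p = 0.00066), and the ratio of the means was 3.38. Without No. 42 and No. 43 the adjusted p was 0.00355.

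LOC105258929 rose from a median of 5.05 CPM (1.74 to 6.37) in the intermediate larvae to 16.4 CPM (7.03 to 31.5) in the long ones. The lowest long larva, No. 79, lay just above the highest intermediate larva. Its log2 difference was 1.76 ± 0.28 (SE, edgeR adjusted p = 0.00356) and 1.75 without the shallow libraries. In this gene the left-out larvae were not beyond the long ones, with medians of 6.70 CPM in the intermediate and 11.5 CPM in the long left-out larvae.

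The other 3 separated genes changed less but with little spread. LOC105257544 had 33.3 to 51.8 CPM in the intermediate larvae (median 47.9) and 62.4 to 109 CPM in the long larvae (median 74.4), a log2 difference of 0.80 ± 0.10 (SE, edgeR adjusted p = 0.00066). LOC105251878 had 46.6 to 71.4 CPM (median 57.3) and 75.0 to 109 CPM (median 87.7), a log2 difference of 0.57 ± 0.08 (adjusted p = 0.00243). LOC105256283 had 13.9 to 20.3 CPM (median 17.6) and 20.6 to 31.7 CPM (median 23.3), a log2 difference of 0.43 ± 0.08 (adjusted p = 0.0157). In LOC105256283 the 2 groups nearly touch, and No. 42 stands alone as the highest long larva. All 6 separated genes kept their call without No. 42 and No. 43, with LOC105256283 at an adjusted p of 0.0283. With all libraries thinned to the smallest total, a setting chosen after seeing the data, LOC105256283 lost its call (adjusted p = 0.544).

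**Figure D1:**
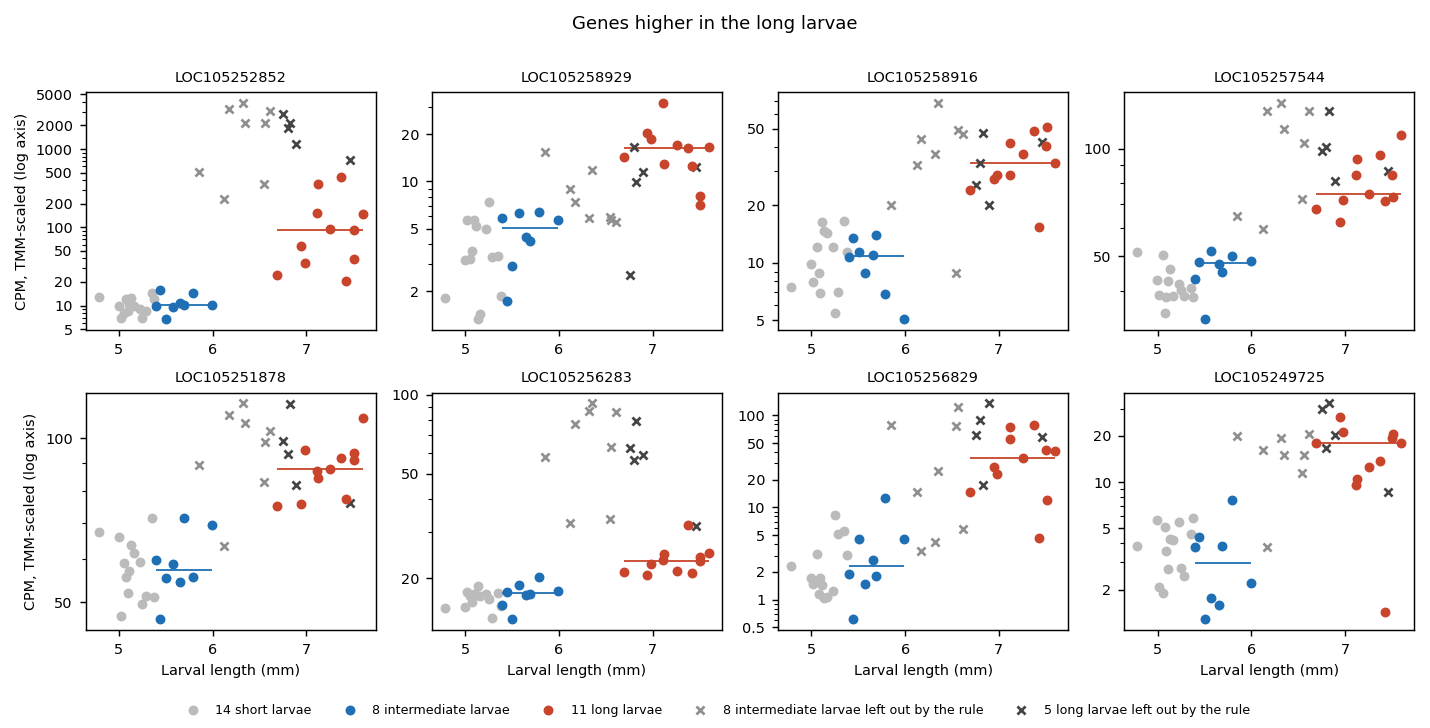
Level of 8 genes called higher in the long larvae, by larva. Each point is 1 larva, with its length in mm on the horizontal axis and CPM on a log axis, circles for the larvae compared and for the 14 short larvae, crosses for the larvae left out by their first-component score, and lines at the medians of the 8 intermediate and 11 long larvae. The first 6 panels show no overlap between blue and red circles, and in LOC105252852 the crosses reach 3845 CPM and the red circles 442 CPM.

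LOC105256829 and the long non-coding RNA gene LOC105249725 rose as steeply but with overlap. LOC105256829 had 0.611 to 12.6 CPM in the intermediate larvae (median 2.30) and 4.62 to 77.8 CPM in the long larvae (median 34.5), a log2 difference of 3.27 ± 0.58 (SE, edgeR adjusted p = 0.00904). Here 1 intermediate larva, No. 21, stood well above the other 7 and inside the range of the long larvae. LOC105249725 had 1.28 to 7.70 CPM (median 2.99) against 1.44 to 26.5 CPM (median 17.9), a log2 difference of 2.22 ± 0.42 (adjusted p = 0.0141). In it 10 of 11 long larvae were above every intermediate larva, and No. 76 was below 7 of the 8. LOC105249725 lost its call in 1 of the 13 other fits, limma-voom, with an adjusted p of 0.0926.

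Next come the called genes with the largest rise in mean CPM, which ranks them by their share of reads, not per length. LOC105249932 was first by this measure. Its level was 2460 to 7692 CPM in the intermediate larvae (median 4732) and 5950 to 13600 CPM in the long larvae (median 9542), a log2 difference of 0.98 ± 0.19 (SE, edgeR adjusted p = 0.0140). The highest intermediate larva overlapped the lower part of the long group, and 8 of 11 long larvae stood above it. LOC105258709 went from a median of 298 CPM (37.3 to 802) to 1490 CPM (379 to 3355), with 9 of 11 long larvae above the intermediate range. Its log2 difference of 2.21 ± 0.51 (adjusted p = 0.0432) fell to 1.94 (adjusted p = 0.129) without No. 42 and No. 43, where the call was lost. LOC105257619 went from a median of 266 CPM (113 to 503) to 832 CPM (469 to 1550), a log2 difference of 1.52 ± 0.28 (adjusted p = 0.0126). In the left-out larvae its medians were below that of the 8 intermediate larvae, at 216 CPM in the intermediate and 255 CPM in the long ones. LOC105257594 went from 559 CPM (435 to 736) to 982 CPM (541 to 1414), a log2 difference of 0.80 ± 0.15 (adjusted p = 0.0126), with 10 of 11 long larvae above every intermediate larva.

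Some higher genes follow each other in the gene order of the annotation when untested genes are skipped. There were 5 runs of neighbouring tested genes called in 1 direction, all upward, of which 3 are described. Untested genes may lie between them, and the number of such runs to expect was not computed. The longest has 3 members, LOC105249930, LOC105249931 and LOC105249932. Its non-coding member LOC105249930 rose from a median of 7.56 CPM (2.70 to 20.7) to 22.5 CPM (8.45 to 40.1), a log2 difference of 1.36 ± 0.31 (SE, edgeR adjusted p = 0.0414). LOC105249931 rose from 281 CPM (157 to 578) to 658 CPM (381 to 935), a log2 difference of 1.03 ± 0.24 (adjusted p = 0.0414). Both overlapped between groups, and both lost their call without No. 42 and No. 43 (adjusted p = 0.114 and 0.127), while LOC105249932 kept it (0.0470). In a second run, LOC105248781 rose from 17.9 CPM (14.3 to 33.2) to 52.7 CPM (18.2 to 80.7), and its neighbour LOC112637522 from 16.5 CPM (11.7 to 25.2) to 52.7 CPM (23.0 to 101). Their log2 differences were 1.40 ± 0.23 (adjusted p = 0.00439) and 1.73 ± 0.25 (adjusted p = 0.00243), and in each 10 of 11 long larvae stood above the intermediate range. In the last of these 3 runs, LOC105249648 rose from 17.8 CPM (12.6 to 26.1) to 46.4 CPM (19.0 to 77.4), log2 1.31 ± 0.20 (adjusted p = 0.00311), and LOC105249647 from 13.1 CPM (8.80 to 16.9) to 33.5 CPM (9.88 to 49.3), log2 1.19 ± 0.24 (adjusted p = 0.0205). LOC105249647 lost its call without No. 42 and No. 43 (edgeR adjusted p = 0.0818). All runs but the longest have 2 genes, and those described were taken in the order listed. The runs not described are LOC105252163 with LOC109610060 and LOC105250638 with LOC109609955. Their genes kept their calls in all 13 alternative fits and with each larva left out. Neighbours that are similar in sequence can share reads, and no sequences were used here to check this.

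The genes that were lower in the long larvae changed less and overlapped in every case. The pseudogene LOC112638847 had 6.79 to 95.2 CPM in the intermediate larvae (median 47.9) and 7.71 to 29.1 CPM in the long larvae (median 11.9), a log2 difference of -1.64 ± 0.39 (SE, edgeR adjusted p = 0.0475). All 11 long larvae were below the intermediate median, but the lowest value of all belonged to an intermediate larva, No. 27. LOC105258751 had 6.20 to 17.9 CPM (median 12.9) and 4.43 to 10.9 CPM (median 6.47), a log2 difference of -0.89 ± 0.18 (adjusted p = 0.0192). It is the only one of the 8 lower genes in the plot of falling genes that kept its call without No. 42 and No. 43 (adjusted p = 0.0447). The other 7 had adjusted p of 0.0937 to 0.136 there, with the same direction.

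LOC105258666 fell from a median of 23.6 CPM (15.3 to 44.2) to 14.7 CPM (9.09 to 21.6), a log2 difference of -0.87 ± 0.21 (SE, edgeR adjusted p = 0.0475). The short larvae stood above both groups with a median of 36.7 CPM, and the left-out larvae below both, at 8.10 CPM in the intermediate and 8.08 CPM in the long ones. LOC105258610 fell from 55.6 CPM (28.3 to 87.6) to 27.6 CPM (17.7 to 52.2), log2 -0.86 ± 0.21 (adjusted p = 0.0477). LOC105248721 fell from 75.4 CPM (57.4 to 112) to 42.6 CPM (27.0 to 88.7), log2 -0.74 ± 0.17 (adjusted p = 0.0458). In LOC105248721 the 10 long larvae other than No. 76 were all below the lowest intermediate larva, and No. 76 was above 7 of the 8 intermediate ones. LOC105258274 fell from 118 CPM (84.0 to 159) to 73.4 CPM (51.2 to 114), log2 -0.66 ± 0.14 (adjusted p = 0.0344). LOC105257125 fell from 44.3 CPM (32.5 to 57.0) to 28.8 CPM (23.2 to 38.4), log2 -0.53 ± 0.11 (adjusted p = 0.0289). LOC105256895 fell from 39.1 CPM (29.8 to 47.4) to 26.1 CPM (18.3 to 39.2), log2 -0.50 ± 0.12 (adjusted p = 0.0442). Both were lower again in the left-out larvae, with medians of 15.4 and 15.8 CPM for LOC105257125 and 20.2 and 16.7 CPM for LOC105256895 in the intermediate and long ones.

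**Figure D2:**
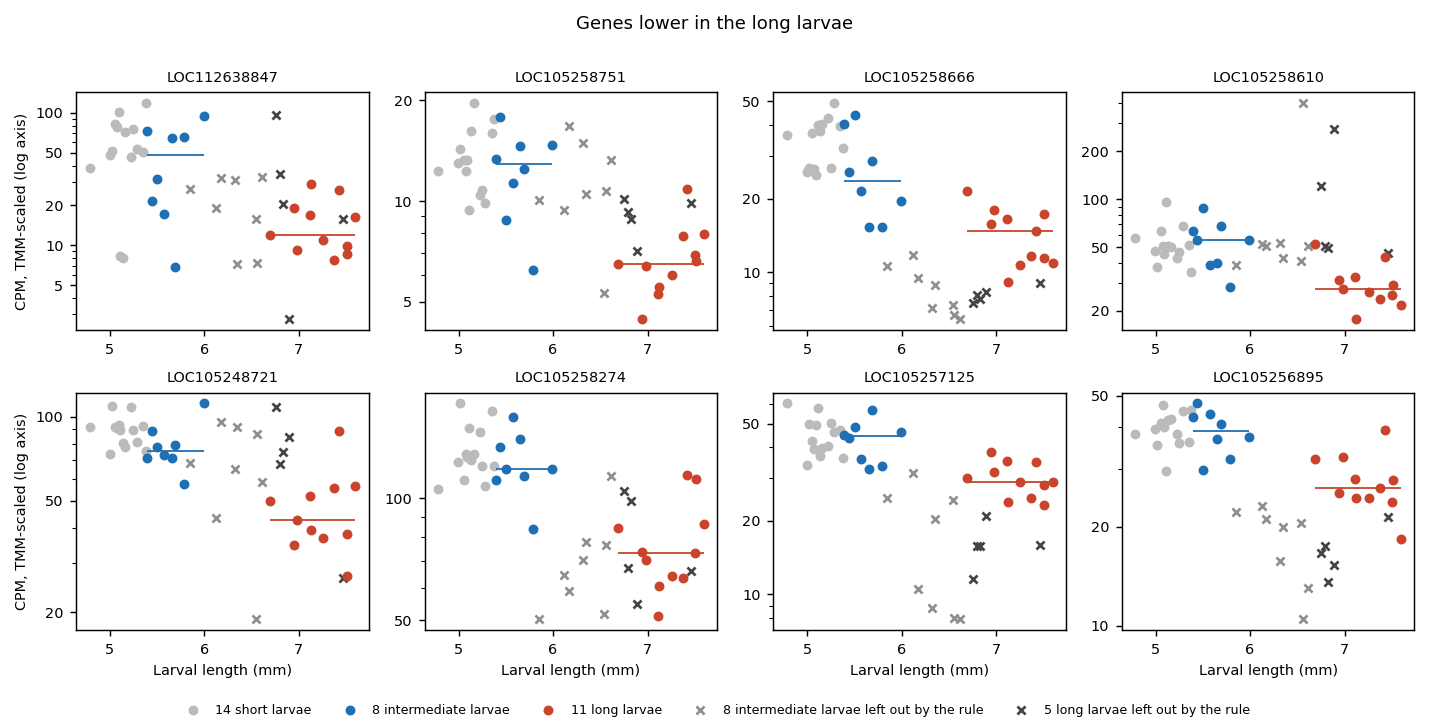
Level of 8 genes called lower in the long larvae, by larva, drawn as for the rising genes with CPM on a log axis. Blue circles (8 intermediate) and red circles (11 long) overlap in every panel, and the median line of the long larvae is the lower one in each.

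A few called genes were close to the limit of detection, and these were picked out after their values were seen. LOC105251138 had 0 to 2 reads in each intermediate larva, 6 reads in all over the 8, and 1 to 128 reads in the long larvae with a median of 30. LOC105250331 had 5 reads in all over the 8 intermediate larvae and 0 to 252 in the long larvae, with 2 long larvae at 0, and it fell below the filter without No. 42 and No. 43. Both passed the filter on low counts only through the long larvae, so their calls give no support of their own. Their fitted differences depend on the small number added to each count and are not given as a size. LOC112637971 had 8 to 52 reads in the intermediate larvae (median 12) and 9 to 394 in the long ones (median 50). LOC109610080 had 10 to 29 reads (median 15) and 6 to 47 (median 27). These 2 genes lost their calls without No. 42 and No. 43 (edgeR adjusted p = 0.0972 and 0.124). In the other direction, LOC112639089 had 17 to 131 reads in the intermediate larvae (median 107) and 0 to 20 in the long ones (median 7). It is the 1 lower gene called in all 13 alternative fits and with each larva left out (edgeR adjusted p = 0.00356). Its level was 0.322 to 3.05 CPM in the intermediate larvae and 0 to 0.416 CPM in the long ones, a log2 difference of -3.01 ± 0.47 (SE). It passed the filter on low counts only through the intermediate larvae, where it is high, so its call gives no support of its own either.

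The 4 genes with a name of their own did not pass the test. Titin, which encodes a giant elastic protein of the muscle sarcomere, had 13.97 to 28.4 CPM in the intermediate larvae (median 17.6) and 17.2 to 39.1 CPM in the long larvae (median 21.5). Its log2 difference was 0.43 ± 0.17 (SE, edgeR adjusted p = 0.212). Makorin-1, whose mammalian counterpart is a zinc finger ubiquitin ligase, had medians of 25.6 CPM (20.8 to 30.9) and 21.1 CPM (17.3 to 28.1), a log2 difference of -0.21 ± 0.11 (adjusted p = 0.370). Traa and Trab are ant copies of transformer, a splicing regulator of insect sex determination. Traa had medians of 144 CPM (67.1 to 255) and 168 CPM (89.2 to 193), log2 0.11 ± 0.23 (adjusted p = 0.893). Trab had medians of 41.5 CPM (18.4 to 51.9) and 34.5 CPM (27.0 to 50.2), log2 -0.02 ± 0.17 (adjusted p = 0.984). Traa and Trab are related copies, so reads may have been divided between them. Both groups overlapped almost fully in Traa and Trab, and the intermediate larvae held the lowest and the highest value of each.

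The larvae of a group were not alike. Of the 88 higher genes, chosen from these same larvae, 10 of the 11 long larvae had 85 to 88 above the median of the intermediate larvae. Larva No. 76 had 72. Counted against the highest intermediate larva, No. 43 exceeded it in 87 genes and No. 42 in 86, while No. 76 exceeded it in 35 and No. 46, the shortest of the long larvae, in 51. The 2 shallow libraries thus stood at the upper end of the long group, and their depth moves together with that position. Among the intermediate larvae, No. 62 had 20 of the 88 genes above their own group's median, No. 35 had 22 and No. 21 had 74. In the 19 lower genes No. 76 and the intermediate larva No. 21 again stood apart. All 19 were below the intermediate median in 10 long larvae, 14 in No. 76 and 17 in No. 21. The shallow libraries were not the most extreme in these genes. No. 40 and No. 41 lay below the lowest intermediate larva in 18 of them, No. 42 in 17 and No. 43 in 15. Leaving out the long larva No. 76 raised the calls to 215 higher and 126 lower genes, the most of any larva left out.

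**Figure D3:**
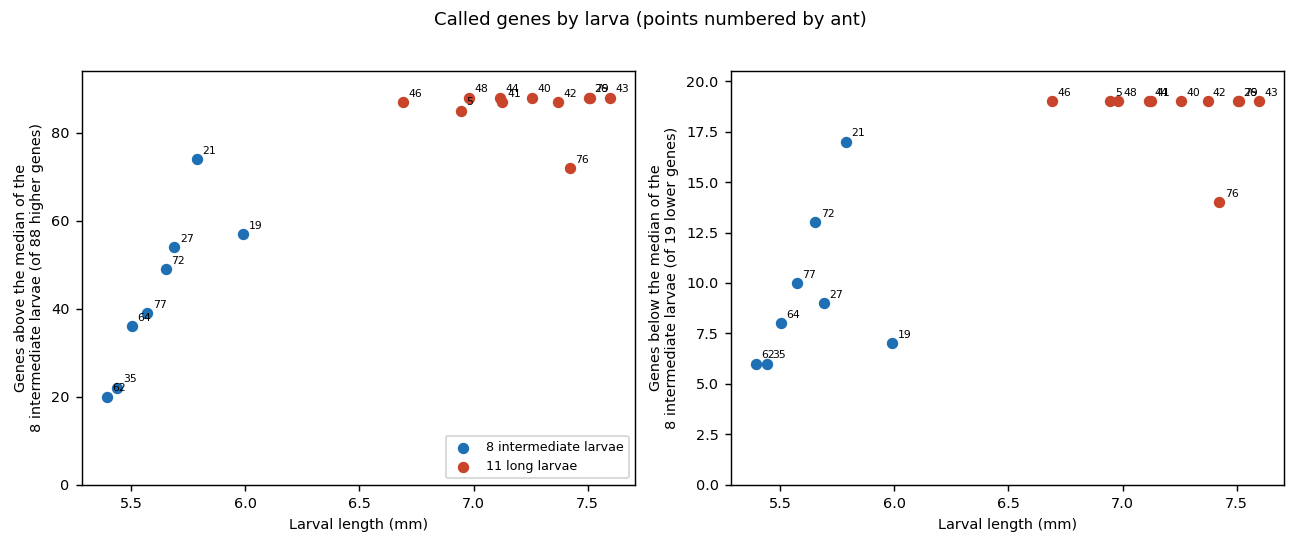
Number of called genes on the long side of the intermediate median in each larva, by length in mm, for the 88 higher genes (left) and the 19 lower genes (right). The intermediate larvae run from 20 to 74 on the left, and among the long larvae No. 76, at 72, stands apart from the other 10, at 85 to 88.

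The number of calls depended on single larvae. Leaving out each larva in turn gave 37 to 215 higher and 4 to 126 lower genes. Leaving out No. 5 gave 151 higher and 46 lower genes, No. 21 gave 143 and 43, and No. 46 gave 125 and 43. No. 79 gave 100 and 20, and No. 19 gave 85 and 12. Each of the other 13 larvae, when left out, brought the counts down to 37 to 54 higher and 4 to 9 lower genes. With the first-component score as a covariate, 65 genes were higher and 18 lower, of which 40 and 6 were among the 107. Using length in mm in place of the groups called 320 higher and 205 lower genes, which include all 107.

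**Figure D4:**
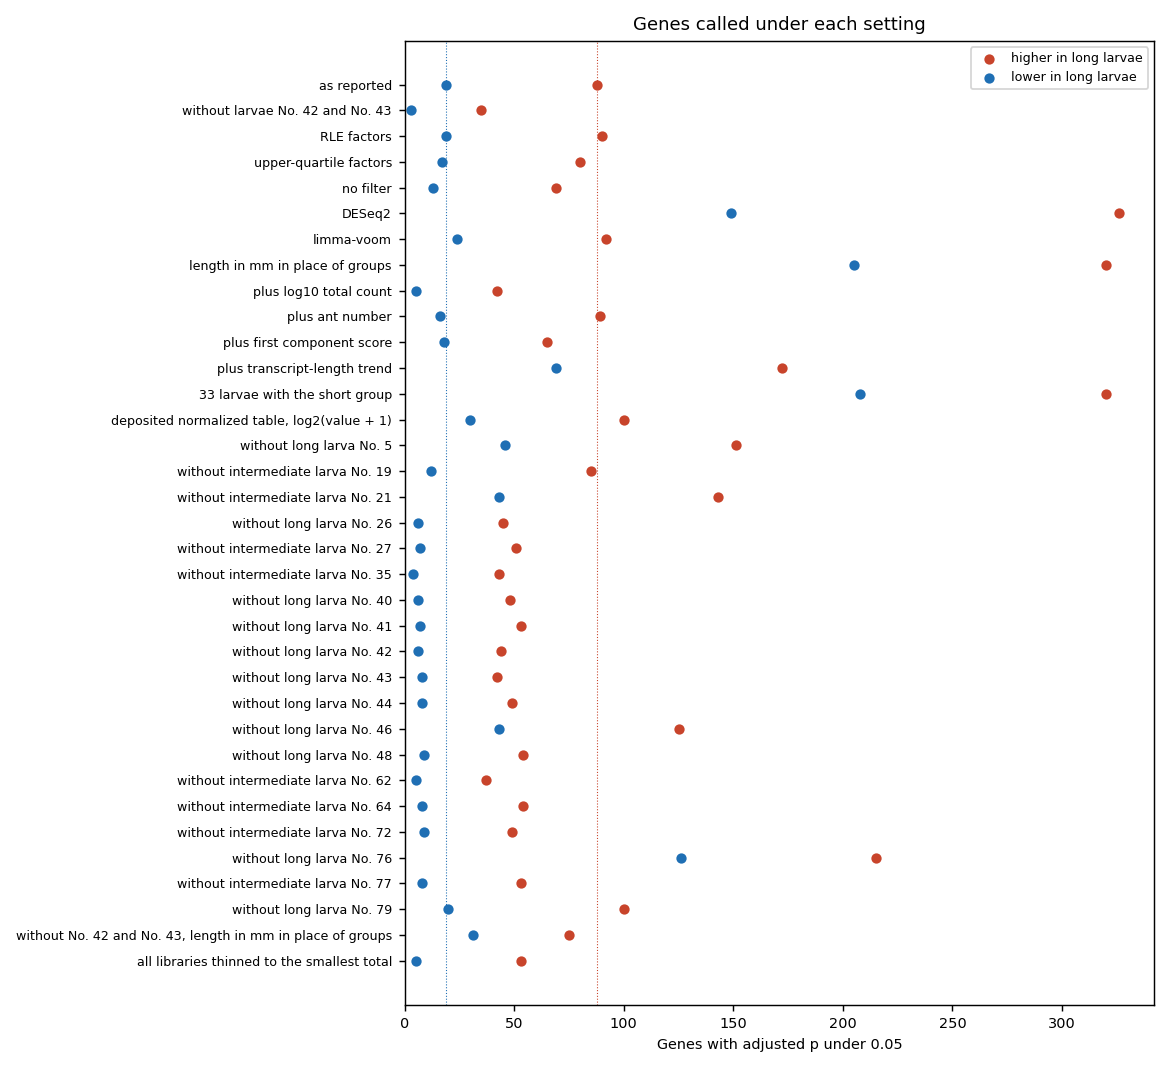
Number of genes called higher (red) and lower (blue) in the long larvae at an adjusted p under 0.05, for each way of fitting the 19 larvae and with each larva left out. Dotted lines mark the 88 and 19 genes reported, and the points run from 35 to 326 for higher genes.

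Whether expression followed length inside each group was tested in a fit with both a group term and a length term. No gene passed (0 of 10361, edgeR), with 1308 genes (12.6%) at an unadjusted p under 0.05. The smallest p belonged to LOC105251557, at 0.79 ± 0.15 log2 per mm (SE, adjusted p = 0.280), a gene also called between the groups. LOC105249540 (-0.77 ± 0.16), LOC105258160 (1.65 ± 0.34) and LOC105250567 (0.78 ± 0.17 log2 per mm) followed with the same adjusted p. None of these 3 was called between the groups. In most called genes the slope and the group difference had the same direction. The slope was upward in 81 of the 88 higher genes (92.0%) and downward in 14 of the 19 lower genes (73.7%). Over all 10361 genes, the slope had the sign of the group difference, fitted without a length term, in 69.2%. These signs come from the larvae that gave the calls and are a description only. In LOC105252852 the slope was 1.06 ± 1.30 log2 per mm (SE) and in LOC105258929 it was -0.38 ± 0.57, neither beyond its error.

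The 13 intermediate and long larvae with a high first-component score gave a comparison of their own, 5 long against 8 intermediate. Their lengths were not matched to those of the 19 larvae. No gene passed there (0 of 10257, edgeR), and 288 genes (2.81%) had an unadjusted p under 0.05. Of the 88 higher genes 87 were tested in these larvae, and 48 (55.2%) had the same direction, with a median log2 difference of 0.08. Of the 19 lower genes 18 were tested, and 12 (66.7%) had the same direction. Over all genes tested in both comparisons the share was 51.0%. The smallest p in these larvae belonged to LOC105254049, with a log2 difference of 0.75 ± 0.15 (SE, adjusted p = 0.980). Also among the 4 smallest was LOC105248489, a gene of low level with a log2 difference of -0.93 ± 0.22 (adjusted p = 0.980). It was called lower between the 19 larvae as well, with a median of 2.60 CPM (1.49 to 3.17) in the intermediate and 0.986 CPM (0.373 to 2.13) in the long larvae, a log2 difference of -1.12 ± 0.27 (adjusted p = 0.0470). That call was lost without No. 42 and No. 43 (adjusted p = 0.0937). The difference in mean length was smaller than that of the 19 larvae, 0.631 against 1.60 mm, and there were fewer larvae.

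A fit over both sets with length in mm asked whether the slope differed. It did in 1 of 10320 genes (0.00969%), LOC105251557, and 828 genes (8.02%) had an unadjusted p under 0.05. LOC105251557 had 75.6 to 131 CPM in the intermediate larvae (median 96.6) and 124 to 208 CPM in the long ones (median 158), with 10 of 11 long larvae above every intermediate one. Its log2 difference there was 0.68 ± 0.11 (SE, edgeR adjusted p = 0.00557). In the larvae with a high score it stood at a median of 229 CPM (206 to 417) in the intermediate and 188 CPM (133 to 240) in the long larvae, a log2 difference of -0.42 ± 0.20 (adjusted p = 0.980). The slope of the 19 larvae exceeded that of the other 13 by 1.16 ± 0.18 log2 per mm (adjusted p = 0.00541). The score that divided these sets comes from the same expression values, so this difference gives no support of its own. The sets also covered different lengths, 5395.82 to 7598.06 µm in the 19 larvae and 5850.88 to 7462.34 µm in the other 13. LOC105257485, next in that fit but not past the threshold (0.88 ± 0.22 log2 per mm, adjusted p = 0.566), was also called between the 19 larvae. It rose from a median of 151 CPM (121 to 195) to 270 CPM (191 to 462), a log2 difference of 0.93 ± 0.16 (adjusted p = 0.00557).

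The step from short to intermediate larvae with low scores was set against the step from intermediate to long, each per mm of difference in mean length, 0.492 mm for the first. No gene passed the test for a difference between the steps (0 of 10528, edgeR), with 168 genes (1.60%) at an unadjusted p under 0.05. On simulated counts this test recovered 44% of genes that differed by 1 log2 per mm, so many differences of that size would be missed. The intermediate larvae enter both steps. The largest value by p was in LOC105255445, at -1.58 ± 0.39 log2 per mm (adjusted p = 0.998). Inside the 14 short larvae no gene followed length either (0 of 10578, edgeR, 397 at an unadjusted p under 0.05). Of the 86 higher genes tested there 28 (32.6%) had an upward slope, and of the 19 lower genes 10 had a downward one, with the same sign as the reported difference in 44.4% of all genes.

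The share of a gene's reads given to each of its transcripts differed in 3 of 4184 genes with at least 2 tested transcripts (0.0717%, edgeR diffSpliceDGE), and 117 genes (2.80%) had an unadjusted p under 0.05. In LOC105256214 the transcript XM_011265947.3 took 29.2% to 55.4% of the reads in the intermediate larvae (median 42.1%) and 44.2% to 72.1% in the long larvae (median 61.7%). Its partner XM_011265948.3 went the other way, from a mean of 56.3% ± 8.39 (SD, n = 8) to 38.0% ± 8.01 (SD, n = 11). The groups overlapped, and the summed level of LOC105256214 did not pass the test (log2 0.24 ± 0.07, SE, adjusted p = 0.107). The test for usage gave an adjusted p of 0.00187.

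In LOC105253655, a gene of low level, XM_025408415.1 took 1.41% to 39.4% of the reads in the intermediate larvae (median 10.5%) and 7.78% to 80.1% in the long ones (median 55.1%). The long larva No. 76 had the lowest share of its group, below several intermediate larvae, and the intermediate larva No. 21 the highest of its own. XM_011261811.3 fell from a mean of 48.5% ± 8.23 (SD, n = 8) to 26.1% ± 13.2 (SD, n = 11), with an adjusted p for usage of 0.0144. LOC105253785 has 18 transcripts in the annotation, and the share of XM_025414016.1 changed from a mean of 31.6% ± 6.89 (SD, n = 8) to 42.2% ± 8.08 (SD, n = 11) at an adjusted p of 0.00187. That call was lost without No. 42 and No. 43 (0.356) and with transcripts of at least 10% of their gene (0.372). The calls for LOC105256214 and LOC105253655 held in both (0.0241 and 0.0276 for each gene), but no gene passed with the Simes form of the test, where each had an adjusted p of 1.00. The shares are estimates of the quantification for overlapping transcripts, not counts of distinct reads.

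**Figure D5:**
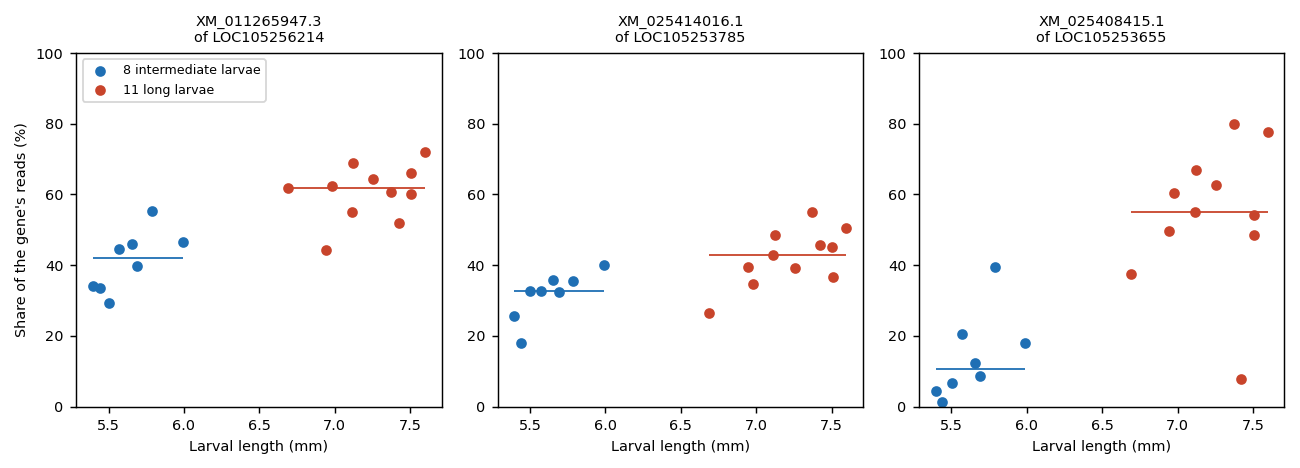
Share of the gene's reads, in percent, given to 1 transcript of each of the 3 genes called for transcript usage, by larval length in mm, with lines at the medians of the 8 intermediate (blue) and 11 long (red) larvae. In XM_025408415.1 of LOC105253655 the medians are 10.5% and 55.1%, and No. 76 is the red point at 7.78%.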

How the data were processed

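The 48 libraries were made from polyA RNA with a directional kit and read in pairs, per the labels' protocols. Per the submitters' processing notes, Salmon, Trim Galore 0.6.7, bcl2fastq 2.20, DESeq2 and DESeq belong to the authors' processing, in no stated order. Salmon's index and strand setting and the build of the genome were not given in the sources used here. Per the file headers, the authors' table for each larva lists estimated counts per transcript, TPM values and effective lengths. A further deposited table gives a normalized signal for all larvae and served 1 alternative. The deposited TPM values were not tested.

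Of 26315 transcripts, 25811 matched the RefSeq table of Cflo_v7.5 by accession, 348 by symbol and 155 as tRNA names, giving 13878 genes. The 1 transcript that names no gene, at most 0.00124% of a library, was left out. The table of normalized values lacks 1 readable cell, which belongs to no larva compared here. No 2 libraries were identical. Estimated counts were summed per gene, rounded, filtered with filterByExpr, scaled by TMM and tested in edgeR 4.0.16 (R 4.3.3, quasi-likelihood F test), 11 long against 8 intermediate larvae with no covariate. An SE is the log2 difference divided by the square root of F. CPM values were scaled by TMM factors over the 48 libraries. The principal component used log2 CPM with a prior count of 2. Transcript usage was tested with diffSpliceDGE on rounded transcript counts. Depths were compared with scipy 1.17.1, other steps used pandas 2.3.3 and, for figures, matplotlib 3.10.9 under Python 3.11.15.

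The members, lists, tests and rule for named genes were chosen with earlier results of these data known. In each direction the rule takes 8 called genes of largest log2 difference with a mean of at least 5 CPM, those without overlap first, and 4 called genes of largest difference in mean CPM. It adds the 3 longest runs of called neighbours, with ties taken in the order listed, and genes with a symbol of their own. The 4 genes of smallest p for transcript usage, and up to 4 of smallest p in each other fit, complete it. Protein pattern classes and promoter letters were also planned, but no protein or promoter sequences were used here, so these lists stayed empty.

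Alternatives were the fit without No. 42 and No. 43, RLE and upper-quartile factors, no filter, DESeq2 1.42.0, limma-voom (limma 3.58.1), length in mm, 4 covariates (total count, ant number, first-component score, transcript-length trend), 33 larvae with the short ones, the normalized table as log2(value + 1), and each larva left out. On simulated counts, 40.5%, 83% and 97.5% of 200 genes changed by 0.5, 1 and 2 log2 units were recovered in the comparison of long with intermediate larvae, and 8.99%, 5.14% and 3.94% of the calls were false. For transcript usage 29.5% were recovered and 23.4% of the calls were false, and for the slope inside the groups 34%. At 1 log2 unit, 61.5% were recovered between the long and intermediate larvae of high score. At 1 log2 per mm, 44% were recovered for the difference of the steps and 65% for the slope of members against other larvae.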

Additional observations from a re-analysis of the deposited data

Results flagged for a closer look

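In 42 groups of values over the 8 intermediate larvae, a larva far from the rest was looked for, and 5 groups held one. The groups were named genes, transcripts and library measures, and the long larvae were not searched. Chance flags about 1 in 20 groups of normally distributed values, and groups from the same larvae are not independent. LOC105257544 stood at 33.3 CPM in the intermediate larva No. 64, below the other 7. LOC105256829 stood at 12.6 CPM and LOC105249930 at 20.7 CPM in the intermediate larva No. 21, above the other 7 in both. Titin stood at 28.4 CPM in the intermediate larva No. 19, above the other 7. The transcript XM_025414019.1 of LOC105253785 took 17.7% of its gene's reads in the intermediate larva No. 35, above the other 7.

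LOC105251557 had a slope with length that was 1.16 log2 per mm higher in the 19 larvae than in the 13 larvae of high first-component score (edgeR adjusted p = 0.00541), the only gene of 10320 past the threshold in that test. The score that divided these larvae comes from the same expression values, so the test gives no support of its own. The 1 transcript that names no gene, outside all comparisons, had 4 to 107 reads in the 19 libraries, above the limit of 3 reads in all 19, with medians of 56 in the intermediate and 59 in the long larvae.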

How the results depend on the processing

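No paired analysis was possible because the ant numbers are unique and the groups share none. Against 88 higher and 19 lower genes, the counts were 35 and 3 without No. 42 and No. 43, 326 and 149 with DESeq2, 320 and 205 with length in mm, 42 and 5 with the total count as a covariate, 172 and 69 with the transcript-length trend, and 320 and 208 with the 33 larvae. The normalized table gave 100 and 30. Leaving out each larva gave 37 to 215 higher and 4 to 126 lower genes. Of the settings chosen after seeing the data, length in mm without No. 42 and No. 43 gave 75 and 31, and thinning all libraries to 6608767 reads gave 53 and 5. The causes were not tested, except that some settings hold fewer larvae or reads. RLE factors (90 and 19), upper-quartile factors (80 and 17), no filter (69 and 13), limma-voom (92 and 24), the ant number (89 and 16) and the first-component score (65 and 18) stayed within 1.5 times. That holds for the counts only, since with the first-component score 40 of the 65 higher and 6 of the 18 lower genes were among the 107. All 107 genes kept their direction wherever tested in the settings of the whole comparison. Transcript usage gave 3 genes, 4 without No. 42 and No. 43, 2 with transcripts of at least 10%, and 0 with the Simes form. The single gene with a differing slope and the counts of 0 for the slope inside the groups did not change under the settings tried. Among named genes the direction turned in uncalled ones, for Traa with the first-component score (-0.082), and for Trab without No. 42 and No. 43 (0.022), with limma-voom (0.062), the total count (0.019) and the normalized table (0.035). Leaving out each larva gave -0.12 to 0.053 for Trab. Depth limits genes of few reads, and 2301 of the 10361 tested genes averaged under 5 CPM.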
